A study of Rattus norvegicus with 23 samples.

Results

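The shared effect of 2 biliary toxicants on rat liver was measured as the average of 2 differences in log2 expression: alpha-naphthylisothiocyanate (ANIT) minus its corn oil vehicle, and 4,4'-methylenedianiline (MDA) minus its ethanol vehicle. The comparison used 12 of the 23 liver samples of the series, 3 in each of 4 groups chosen by their titles. ANIT was given at 100 mg/kg and set against corn oil at 5 ml/kg (corn oil below means this volume), and MDA was given at 100 mg/kg and set against 35% ethanol at 2 ml/kg. All animals were male Sprague Dawley rats of 6 to 8 weeks that were dosed by oral gavage on 5 days, with necropsy 24 hours after the last dose, and RNA came from the left lateral lobe. The other samples were acetaminophen (APAP, 1000 mg/kg, n = 3) with corn oil at 2 ml/kg (n = 3), and diclofenac (DCLF, 10 mg/kg, n = 3) with water at 10 ml/kg (n = 2). The study's histology described biliary toxicity under ANIT and MDA and no findings under APAP or DCLF. ANIT and MDA came from separate in-life studies, each with its own vehicle animals, so that study differences drop out of each difference but compound and study cannot be told apart between them. All 3 titles of the ANIT vehicle end in the same animal number, their leading numbers were taken as separate animals, and the p-values measure only the spread between these samples.

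Both compounds are classical bile duct poisons in the rat. Cholangiocytes, the epithelial cells that line the bile ducts, carry keratins that hepatocytes lack, and after injury they proliferate together with the fibroblasts of the portal tract, a change called ductular reaction. Hepatocytes make bile acids from cholesterol through Cyp7a1 and Cyp8b1, take them up from blood through Slc10a1, secrete them into bile through Abcb11 and, when bile flow fails, export them back to blood through Abcc3 and Abcc4.

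Expression was read on an Affymetrix whole-genome rat array, in which a probe set is a group of short probes for 1 transcript, and all values below are log2 values from the robust multi-array average (RMA). They ran between 4.65 and 15.99, and the medians of the arrays lay between 8.95 and 9.02. The 31042 probe sets that are not array controls were tested, and 14217 genes were represented by their brightest probe set. Arrays of 1 group correlated at 0.987 to 0.995 within the 12 samples, ANIT with MDA arrays at 0.976 to 0.986, and ANIT with their corn oil arrays at 0.975 to 0.981. Alb, the albumin gene and most abundant hepatocyte product, stood at 14.58, 14.97 and 15.95 in ANIT livers, against 15.97, 14.57 and 15.98 in corn oil livers. It stood at 15.95, 15.96 and 15.95 in MDA livers, against 15.98, 15.95 and 15.98 in ethanol livers, so 9 of these 12 arrays sat just under the top of the scale. A change in such bright genes can be compressed, and in bulk tissue fewer cells of a type and less RNA per cell cannot be told apart.

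A gene was a shared call when the average of both changes had an adjusted p under 0.05 (limma, Benjamini-Hochberg over all probe sets) and exceeded 1.5-fold, and when each compound alone had the same sign with an adjusted p under 0.05. This held for 707 genes, 4.97% of those tested, of which 336 were higher (2.36%) and 371 lower (2.61%). The shares of 2.36% and 2.61% are the background for the shared counts of every gene list below. Over probe sets the rule named 1152 (3.71%), 483 higher (1.56%) and 669 lower (2.16%). Taken alone, at the same fold threshold, ANIT changed 1090 genes (7.67%), 582 higher (4.09%) and 508 lower (3.57%). MDA changed 1323 genes (9.31%), 708 higher (4.98%) and 615 lower (4.33%). Over probe sets ANIT changed 5.75% (2.84% higher and 2.92% lower) and MDA changed 7.19% (3.29% higher and 3.9% lower). The calls of both compounds met in the same direction for 547 genes, 50.2% of the ANIT calls and 41.4% of the MDA calls, and in opposite directions for 7 genes. Of the genes called for ANIT, 1022 had the same sign under MDA (93.8%), and of the genes called for MDA, 1204 had the same sign under ANIT (91.0%), whereas 69.8% of all genes had the same sign. Across the 14217 genes, which are not independent replicates, the changes correlated with a Pearson r of 0.657 between ANIT and MDA. The same correlation was 0.149 between ANIT and APAP, 0.205 between MDA and APAP, 0.113 between ANIT and DCLF and 0.201 between MDA and DCLF. No vehicle sample was common to any of these pairs, and all changes were read on the same array type.

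**Figure D1:**
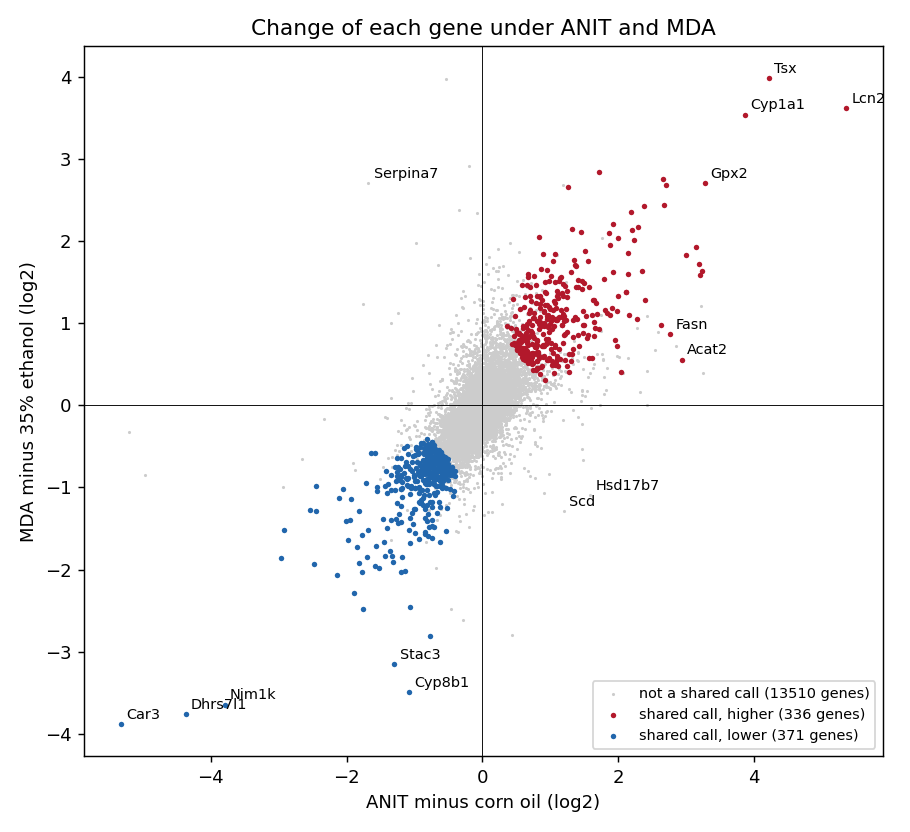
Log2 change of each of 14217 genes under MDA (vertical, against 35% ethanol) and under ANIT (horizontal, against corn oil); each point is a gene. The 336 shared higher genes (red) and 371 shared lower genes (blue) lie along the diagonal by the rule that chose them, while Serpina7, Scd and Hsd17b7 lie in the quadrants where the compounds went in opposite directions.

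The leading higher gene was Tsx, named for its testis expression and X linkage. Its level was 12.16, 12.04 and 11.14 in ANIT livers, against 7.59, 7.49 and 7.61 in corn oil livers. It was 11.52, 11.99 and 11.59 in MDA livers, against 7.67, 7.59 and 7.88 in ethanol livers. Every treated liver lay far above every vehicle liver, with ANIT replicate 3 the lowest of the treated ones, and the shared change was 4.10 ± 0.154 (SE, adjusted p = 8.51e-08). Lcn2, lipocalin 2, a secreted protein that binds bacterial iron carriers and is made by injured epithelium, was at 13.75, 13.38 and 15.61 in ANIT livers, against 8.90, 8.98 and 8.78 in corn oil livers. The MDA livers had 13.25, 12.84 and 13.33 and the ethanol livers 9.54, 9.54 and 9.49. ANIT replicate 3 stood above all others, no groups overlapped, and the shared change was 4.49 ± 0.288 (adjusted p = 9.91e-07). Cyp1a1, the P450 enzyme that is the standard readout of the aryl hydrocarbon receptor, was at 13.03, 13.33 and 12.97 in ANIT livers, against 9.38, 9.31 and 9.04 in corn oil livers. It was at 13.10, 14.31 and 13.99 in MDA livers, against 10.56, 9.90 and 10.32 in ethanol livers, again with no overlap, and its shared change was 3.70 ± 0.181 (adjusted p = 1.92e-07).

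The remaining members of the 20 leading higher genes had roles in transport, detoxification, inflammation, cell shape and division. Abcc3, the basolateral pump that exports conjugated bile acids and glucuronides to blood, was at 12.72, 11.69 and 11.96 in ANIT livers, against 9.28, 8.88 and 10.11 in corn oil livers. The MDA livers had 11.70, 11.72 and 11.92 and the ethanol livers 9.31, 8.98 and 8.98. The groups did not overlap although corn oil replicate 3 was high for its group, and Abcc3 rose by 2.70 under ANIT and by 2.69 under MDA, a shared change of 2.69 ± 0.203 (adjusted p = 3.06e-06). Cxcl1, a chemokine that attracts neutrophils, was at 11.61, 11.43 and 11.07 in ANIT livers, against 8.90, 8.64 and 8.59 in corn oil livers. It was at 11.81, 11.30 and 11.23 in MDA livers, against 8.61, 8.49 and 8.95 in ethanol livers. All treated livers were well above their vehicles, and the shared change was 2.71 ± 0.126 (adjusted p = 1.29e-07). Neurl3, a ubiquitin ligase, rose by 2.17 ± 0.0965, Tnfaip3, the ubiquitin-editing brake on NF-kappaB, by 1.91 ± 0.123, and Tes, a focal adhesion protein, by 2.02 ± 0.105. Pla1a, a phospholipase that acts on phosphatidylserine, rose by 2.06 ± 0.105 and Tusc3, a subunit of the enzyme that attaches sugar chains to proteins, by 2.27 ± 0.196. Over these 20 genes the smaller of the ANIT and MDA changes ran between 3.29-fold and 15.8-fold, and none of them passed the test of a difference between ANIT and MDA. The genes were chosen by this smaller change, so its size and the lack of a difference follow in part from the choice. Ubd, a ubiquitin-like modifier, was the least steady of the set: its shared change was 2.23 ± 0.395, MDA replicate 3 lay at 12.05 beside 14.68 and 14.58 in its group, and the call was lost in 7 of the 12 fits that left out 1 sample.

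**Figure D2:**
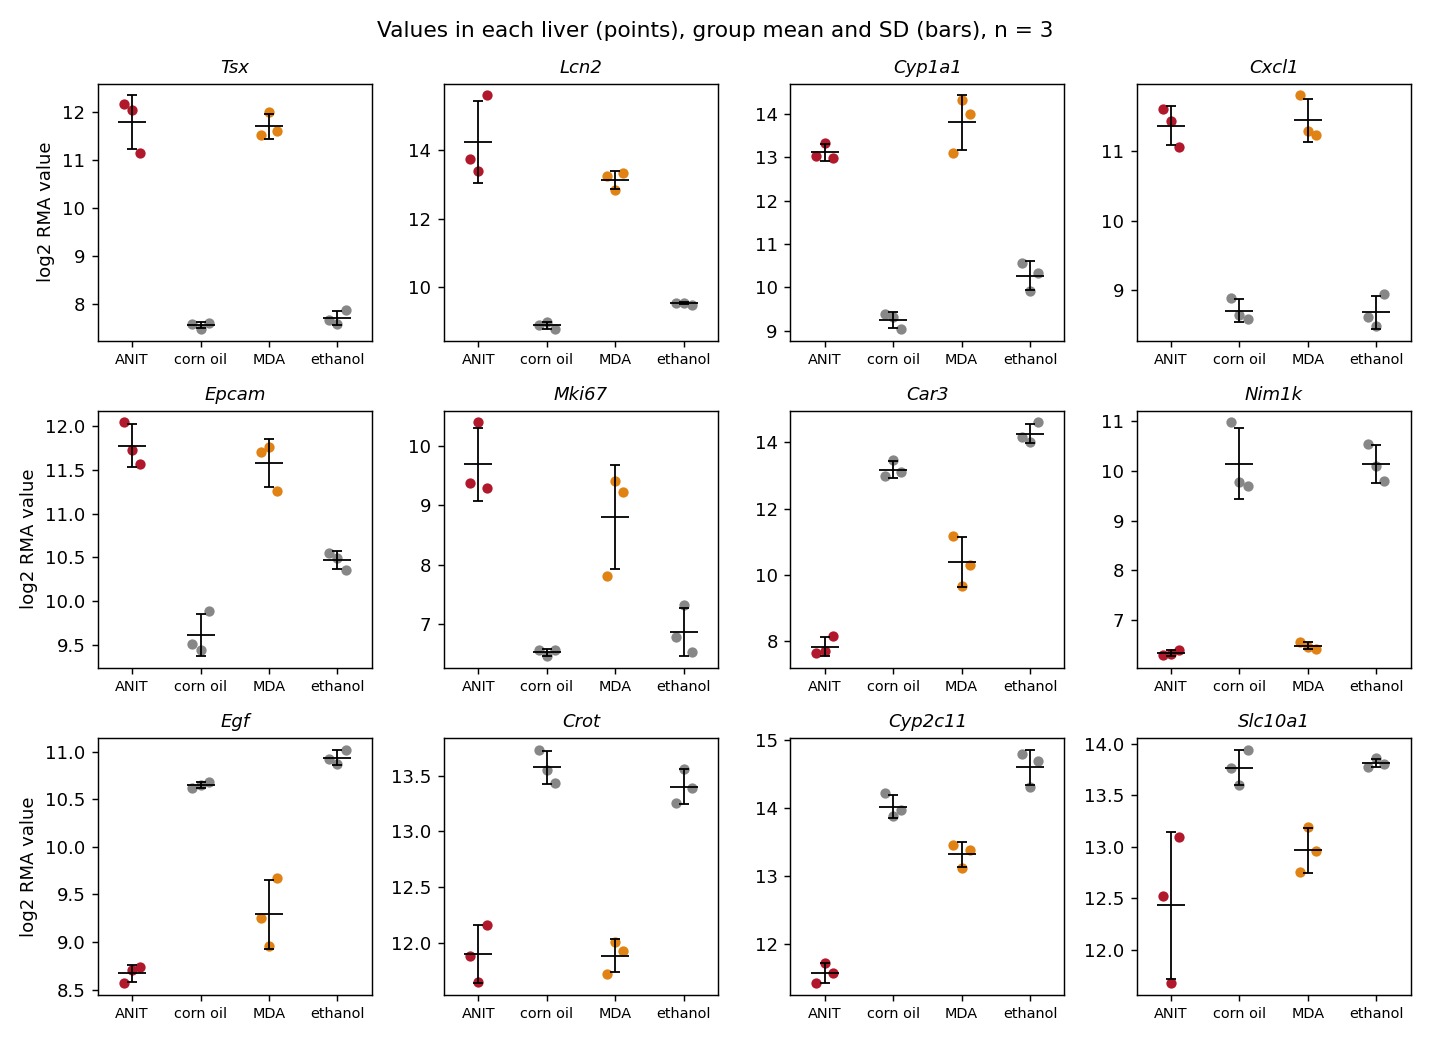
Log2 RMA values (vertical) of 12 genes in the individual livers (points) of the ANIT, corn oil, MDA and 35% ethanol groups, with the mean and SD of each group (n = 3). The treated livers lie wholly above or wholly below their own vehicle livers in each panel, and the widest group is ANIT for Lcn2, between 13.38 and 15.61. All 12 genes are shared calls, a choice that favours groups without overlap.

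A minority of bile duct markers were shared higher calls, and the classical ductal keratins were not among them. Of 31 measured markers of bile duct and ductular reaction, 7 were shared calls, all higher, against 2.36% of all genes, and the median shared change of the 31 was 0.46 beside -0.0042 over all genes. The shared changes ran between -1.45 and 1.63, and 26 of the 31 had the same sign under both compounds. Under MDA 11 were called higher and 1 lower, and under ANIT 10 higher and 0 lower. Epcam, the epithelial adhesion molecule that marks cholangiocytes and progenitor cells, was at 12.04, 11.72 and 11.57 in ANIT livers, against 9.51, 9.44 and 9.88 in corn oil livers. In MDA livers it was at 11.70, 11.76 and 11.26, against 10.56, 10.49 and 10.36 in ethanol livers. The groups did not overlap, and the ethanol livers started above the corn oil livers. Epcam rose by 2.16 ± 0.160 under ANIT and by 1.10 ± 0.160 under MDA, and the difference of 1.06 ± 0.226 passed the test (adjusted p = 0.0444). Krt8, a keratin of simple epithelia that hepatocytes also make, was at 13.32, 13.05 and 13.40 in ANIT livers, against 11.71, 11.58 and 11.79 in corn oil livers. It was at 13.07, 13.20 and 13.07 in MDA livers, against 11.62, 11.84 and 11.55 in ethanol livers, an even step in all animals of 1.503 ± 0.0765 (adjusted p = 2.39e-07). Its filament partner Krt18 rose by 1.15 ± 0.0846, the membrane-binding annexins Anxa2 and Anxa5 by 1.49 ± 0.133 and 0.76 ± 0.0648, and S100a6, a calcium-binding protein, by 1.05 ± 0.120. Sctr, the secretin receptor of cholangiocytes, rose by 0.74 ± 0.120, a call lost in 4 of the 12 fits that left out 1 sample.

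The ductal keratins Krt7 and Krt19 were not shared calls. Krt19 was at 9.46, 8.09 and 8.27 in ANIT livers, against 7.95, 7.52 and 7.76 in corn oil livers, and at 8.14, 8.70 and 8.48 in MDA livers, against 7.99, 8.01 and 7.81 in ethanol livers. The groups did not overlap, but ANIT replicate 1 alone was clearly high, and the change had an adjusted p of 0.0696 under ANIT and 0.284 under MDA. Krt7 changed by 0.88 ± 0.216 under ANIT (adjusted p = 0.0188) and by 0.34 ± 0.216 under MDA (adjusted p = 0.367). Spp1, osteopontin, which ductular cells secrete, had a shared change of 0.07 ± 0.105 (adjusted p = 0.713).

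Genes of the cytoskeleton and of cell adhesion formed the largest shared higher group. Of 37 measured members 17 were shared higher calls and none was lower, against 2.36% and 2.61% of all genes. The median shared change was 0.73, and all 37 had the same sign under both compounds, against 69.8% of all genes. Tubb6, a beta tubulin, was at 10.26, 10.89 and 10.34 in ANIT livers, against 8.31, 8.38 and 8.44 in corn oil livers. It was at 9.63, 9.76 and 9.85 in MDA livers, against 8.44, 8.46 and 8.19 in ethanol livers. The groups were tight and separate, with a shared change of 1.75 ± 0.102 (adjusted p = 5e-07). Actg1, cytoplasmic gamma actin, rose by 1.08 ± 0.0888, Vim, the intermediate filament vimentin of mesenchymal cells, by 1.08 ± 0.0770, and Flna, the actin cross-linker filamin A, by 0.90 ± 0.0753. Myh9, the heavy chain of non-muscle myosin, rose by 0.75 ± 0.0633. The annexin partners S100a10 and S100a11 rose by 1.14 ± 0.110 and 1.13 ± 0.109. Ezr, the membrane linker ezrin, was the weakest of the 17, and its call was lost in 11 of the 12 fits that left out 1 sample.

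Among 37 genes of matrix, fibroblasts and stellate cells, 9 were shared higher and 2 shared lower calls (2.36% and 2.61% of all genes), with a median of 0.31. Timp1, an inhibitor of matrix proteases made by activated stellate cells, was at 11.48, 11.41 and 11.49 in ANIT livers, against 9.05, 9.14 and 9.16 in corn oil livers. It was at 10.18, 10.71 and 10.63 in MDA livers, against 8.85, 9.04 and 8.71 in ethanol livers, with no overlap and a shared change of 1.99 ± 0.0900 (adjusted p = 1.15e-07). Postn, periostin, a matrix protein of injured tissue, had 9.64, 7.75 and 8.89 in ANIT livers, against 6.77, 6.47 and 6.604 in corn oil livers. Its MDA livers had 7.97, 8.48 and 9.14 and its ethanol livers 6.65, 6.83 and 6.56. The treated livers were spread over a wide range but lay above all vehicle livers, and the shared change was 1.997 ± 0.269 (adjusted p = 0.000198). Tagln, an actin-binding protein of myofibroblasts and smooth muscle, rose by 1.32 ± 0.126 under ANIT and by 2.15 ± 0.126 under MDA, and the difference of -0.83 ± 0.178 passed the test (adjusted p = 0.0463). Acta2, the smooth muscle actin of activated stellate cells, rose by 1.16 ± 0.0904 and Col1a1, the main fibrillar collagen, by 1.35 ± 0.161. The falling members were Lrat, which stores vitamin A as retinyl ester in quiescent stellate cells (-1.58 ± 0.227), and Reln, the secreted glycoprotein reelin (-0.61). Both of these lower calls were absent without ANIT replicate 3 or corn oil replicate 1, and each was lost in 4 of the 12 fits that left out 1 sample.

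Ccn2, connective tissue growth factor, is a well-known target of the coactivator YAP with its DNA-binding partner TEAD. Its level was 10.68, 10.86 and 10.68 in ANIT livers, against 9.21, 8.56 and 9.32 in corn oil livers, and 10.11, 11.48 and 10.79 in MDA livers, against 7.91, 7.96 and 7.998 in ethanol livers. No groups overlapped, the corn oil livers being higher than the ethanol livers, and the shared change was 2.28 ± 0.192 (adjusted p = 6.73e-06). Of 26 measured genes on the list of YAP and TEAD targets, 3 rose (Ccn2, Ajuba and Myof) and 1 fell (Igfbp3, which binds insulin-like growth factors, -1.76 ± 0.179), and the median was 0.14. Over all genes 2.36% were shared higher and 2.61% shared lower calls. Igfbp3 was lost as a call without corn oil replicate 3, Myof was lost in 8 of the 12 fits that left out 1 sample, and Ajuba was lost when a gene's probe sets were averaged. The RefSeq promoter table (build GRCr8) held 573 of the 707 shared genes, and the letters of the TEAD motif (GGAATG, both strands) were present within the 250 bases before the start in 11.8% of the 27457 promoters, in 10.4% of those of the 11733 tested genes with a promoter and in 10.4% of those of shared higher genes. The stretch of the Ccn2 promoter from position -180 to -71 (chr1:22624685-22624794, minus strand) is shown because it holds 3 such matches, set in capitals.
Ccn2: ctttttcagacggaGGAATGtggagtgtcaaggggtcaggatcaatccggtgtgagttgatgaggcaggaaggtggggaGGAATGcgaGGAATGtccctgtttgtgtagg

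Cell division genes held shared higher calls, with a larger median under ANIT and few calls under MDA alone. Of 35 measured mitosis genes 7 were shared calls, all higher, against 2.36% of all genes, and all 35 had the same sign under both. ANIT alone called 30 of them higher and MDA alone called 6, against 4.09% and 4.98% of all genes. The medians were 1.34 under ANIT and 0.52 under MDA, while 2 of the 35 passed the test of a difference, against 1.77% of all genes. Mki67, the nuclear protein that marks cycling cells, was at 9.38, 10.39 and 9.29 in ANIT livers, against 6.58, 6.47 and 6.56 in corn oil livers. In MDA livers it was at 7.81, 9.41 and 9.22, against 6.79, 7.32 and 6.53 in ethanol livers. MDA replicate 1 lay well below the other MDA livers, though still above every ethanol liver, and the shared change was 2.54 ± 0.269 (adjusted p = 3.44e-05). Ccna2, the cyclin of S phase and early mitosis, showed the same order, with 7.88, 9.08 and 7.78 in ANIT livers, against 5.06, 5.12 and 5.00 in corn oil livers. Its MDA livers had 6.36, 7.20 and 8.02 and its ethanol livers 5.42, 5.73 and 5.28, and it rose by 2.45 ± 0.266 (adjusted p = 3.98e-05). The number of shared mitosis calls turned on single MDA livers, being 18 without MDA replicate 1, 2 without MDA replicate 2 and 3 without MDA replicate 3, and it was also 3 without ethanol replicate 2 or ethanol replicate 3. Cdk1, the kinase that drives entry into mitosis, rose by 2.63 ± 0.286 under ANIT and by 0.98 ± 0.286 under MDA (adjusted p = 0.0361), and was lost as a shared call in 6 of the 12 fits that left out 1 sample. Ube2c, which tags cyclins for destruction, was higher by 1.98 ± 0.176 under ANIT and by 0.72 ± 0.176 under MDA, and the compounds differed by 1.26 ± 0.248 (adjusted p = 0.0324). Of 31 genes of DNA replication and S phase 7 rose, with a median of 0.34, among them Mcm6 of the replicative helicase (1.55 ± 0.180) and Uhrf1, which maintains DNA methylation (1.36 ± 0.0911).

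Promoters of mitotic genes commonly carry a CHR element (TTTGAA) near CCAAT boxes, to which the cell cycle complexes MuvB and NF-Y bind. The promoter table held 4 of the 7 shared mitosis genes, and 3 of these had both motifs in their windows. Over all 27457 promoters 16% held the letters TTTGAA and 34.3% the letters CCAAT on either strand. These shares were 10.9% and 35.1% over the tested genes, and 11.2% and 34% over the 268 shared higher genes with a promoter. Stretches with matches are shown for Mki67 from position -200 to -81 (chr1:199952674-199952793, minus strand) and Cdk1 from -100 to -1 (chr20:19265193-19265292, plus strand). Prc1, a protein of the dividing spindle, is shown from -70 to -1 (chr1:143659411-143659480, plus strand). A further CCAAT match at -210 in Cdk1 and another at -239 in Prc1 lie outside the stretches shown. Capitals mark both motifs, read as TTTGAA or TTCAAA and as CCAAT or ATTGG, and in Mki67 the last pair overlaps.
Mki67: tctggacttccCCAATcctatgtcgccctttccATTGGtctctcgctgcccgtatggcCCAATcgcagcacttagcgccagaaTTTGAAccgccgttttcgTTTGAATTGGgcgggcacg
Cdk1: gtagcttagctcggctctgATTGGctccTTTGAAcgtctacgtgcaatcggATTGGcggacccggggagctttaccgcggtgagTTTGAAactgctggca
Prc1: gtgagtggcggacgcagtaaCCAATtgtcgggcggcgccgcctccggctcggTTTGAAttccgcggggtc

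The acute phase and chemokine lists held shared calls in both directions. Over all genes 2.36% were shared higher and 2.61% shared lower calls. Of 24 acute phase genes 3 rose and 1 fell. Lbp, the binding protein for bacterial lipopolysaccharide, was at 13.56, 13.39 and 13.71 in ANIT livers, against 12.31, 12.33 and 12.53 in corn oil livers. It was at 13.94, 13.85 and 13.67 in MDA livers, against 12.24, 12.19 and 12.34 in ethanol livers, with no overlap and a shared change of 1.36 ± 0.0737 (adjusted p = 2.93e-07). Orm1, the plasma protein orosomucoid, rose by 1.46 ± 0.205 and was lost without corn oil replicate 2, and Apcs, the pentraxin serum amyloid P, fell by 0.60 and was lost in 4 of the 12 fits that left out 1 sample. Of 25 chemokine and cytokine genes 2 rose, Cxcl1 and Cxcl16 (1.30 ± 0.152), and 2 fell, Cxcl12 (-1.22 ± 0.128), the chemokine that keeps stem and immune cells in place, and the alarmin Il33 (-1.11 ± 0.154). Cxcl16 was lost without corn oil replicate 2, and Il33 without ANIT replicate 1, corn oil replicate 2 or corn oil replicate 3. No gene of 24 for complement and coagulation was a shared call by limma, and 1 was higher by the same rule at an unadjusted p under 0.05. Of 20 immediate early genes, which cells switch on within minutes of a stimulus, 6 were shared higher calls. They were led by Klf6 (1.46 ± 0.111) and included Junb (0.84 ± 0.0879), Klf4 (0.74 ± 0.0910), Jun (1.18 ± 0.164), Atf3 (1.28 ± 0.202) and Myc (1.03 ± 0.183). Jun and Atf3 were each lost in 3, and Myc in 6, of the 12 fits that left out 1 sample.

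Marker genes of blood and resident immune cells moved unevenly. None of 11 neutrophil and none of 21 lymphocyte markers was a shared call by limma, nor by the same rule at an unadjusted p under 0.05 (0 and 0), and their median shared changes were 0.13 and 0.09. Of 17 listed neutrophil markers only these 11 were measured, and the lack of a call does not show that neutrophils were absent. The study's histology described neutrophils around the bile ducts under both compounds. The summed neutrophil level lay between 11.43 and 11.58 in ANIT livers, against 11.36 and 11.56 in corn oil livers, and between 11.59 and 11.70 in MDA livers, against 11.31 and 11.47 in ethanol livers. The ANIT and corn oil ranges thus overlapped while the MDA and ethanol ranges did not. The lymphocyte median averaged opposite moves, with 2 markers called lower under ANIT, 5 called higher under MDA and 5 that passed the test of a difference. The summed lymphocyte level lay between 13.17 and 13.26 in ANIT livers, against 13.35 and 13.58 in corn oil livers, and between 13.65 and 13.84 in MDA livers, against 13.30 and 13.41 in ethanol livers. It was thus lower in every ANIT liver and higher in every MDA liver than in their vehicles. Of 23 monocyte and macrophage markers 3 rose under both, Gpnmb (1.44 ± 0.114), a glycoprotein of lipid-laden macrophages, Lgals3, galectin 3 (1.26 ± 0.0775), and Cd163, the haemoglobin scavenger receptor (0.91 ± 0.127). MDA alone called 15 of these markers higher, whereas ANIT called 3 higher and 1 lower. Over all genes MDA called 4.98% higher, and ANIT called 4.09% higher and 3.57% lower. Their summed level lay between 15.76 and 16.08 in ANIT livers, against 15.66 and 15.81 in corn oil livers, which overlapped, and between 16.22 and 16.43 in MDA livers, against 15.36 and 15.58 in ethanol livers. Gpnmb rose by 0.83 ± 0.161 under ANIT and by 2.04 ± 0.161 under MDA, a difference that passed the test (adjusted p = 0.0256). Of 19 endothelial markers 1 fell (Kdr, the main receptor for vascular endothelial growth factor, -0.61), a call lost in 5 of the 12 fits that left out 1 sample. In a list of this size 1 lower call is near the share of 2.61% over all genes. The summed bile duct markers lay between 16.14 and 16.30 in ANIT livers, against 15.66 and 15.80 in corn oil livers, and between 16.13 and 16.27 in MDA livers, against 15.74 and 15.85 in ethanol livers. The part of cell composition in the changes of the duct, matrix, cytoskeletal and immune genes was not tested.

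Shared calls among targets of the aryl hydrocarbon receptor were all higher, and those among targets of the oxidant sensor NRF2 were higher with 1 exception. Of 7 aryl hydrocarbon receptor targets 3 rose, Cyp1a1, its relative Cyp1b1 (0.68 ± 0.0633) and the quinone reductase Nqo1 (0.92 ± 0.115). Of 24 NRF2 targets 7 rose and 1 fell, with a median of 0.34. Gpx2, a selenium-dependent glutathione peroxidase of gut and duct epithelium, was at 11.91, 12.15 and 10.70 in ANIT livers, against 8.49, 7.97 and 8.48 in corn oil livers. It was at 9.93, 10.96 and 11.66 in MDA livers, against 8.05, 8.03 and 8.36 in ethanol livers. The treated livers spread over more than 1 log2 unit in both groups but did not overlap their vehicles, and the shared change was 2.99 ± 0.286 (adjusted p = 1.69e-05). Ephx1, microsomal epoxide hydrolase, rose by 1.46 ± 0.101 and Hmox1, which degrades haem, by 0.93 ± 0.0940. The falling member was Gclc (-0.63 ± 0.0787), the rate-limiting enzyme of glutathione synthesis, at 11.09, 11.18 and 11.28 in ANIT livers, against 11.98, 11.96 and 11.78 in corn oil livers. It was at 11.36, 11.80 and 11.47 in MDA livers, against 12.12, 12.11 and 12.002 in ethanol livers, without overlap, and its call was lost without MDA replicate 1. The Gclc call was also lost with quantile normalization (-0.56) and with array weights (-0.58). The 70 bases before the start of Gpx2 (chr6:101230034-101230103, minus strand, from position -70 to -1) hold 1 match to the antioxidant response letters TGACNNNGC, here on the reverse strand and set in capitals. Such a match was present on either strand in 10.2% of all promoters, in 12.3% of those of tested genes and in 10.1% of those of shared higher genes. Among the 6 shared NRF2 targets with a promoter Gpx2 was the only 1 that held it.
Gpx2: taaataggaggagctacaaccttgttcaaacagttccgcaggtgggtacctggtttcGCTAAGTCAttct

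The glutathione S-transferases, which join glutathione to toxic electrophiles, split by gene. Of 20 measured members 4 rose and 3 fell, and the median was 0.21. Gstm3 was at 12.997, 12.66 and 12.58 in ANIT livers, against 9.79, 9.57 and 9.27 in corn oil livers, and at 11.001, 11.43 and 11.56 in MDA livers, against 9.75, 9.50 and 9.99 in ethanol livers. It rose in all treated livers, by 3.20 ± 0.179 under ANIT and 1.59 ± 0.179 under MDA, and the difference of 1.62 ± 0.253 passed the test (adjusted p = 0.0106). Gsta3 rose by 2.40 ± 0.241, while Gstp3 fell by 2.22 ± 0.196, Gstm7 by 0.89 ± 0.149 and Gstz1, which also degrades tyrosine, by 0.86 ± 0.0876. Gsta4 and Gstm2 were weak calls, and 2 higher calls were left without ANIT replicate 1, corn oil replicate 1 or 2, MDA replicate 2 or ethanol replicate 2. Probes of such multigene families can bind more than 1 member, which makes the identity of single members uncertain.

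The leading lower gene was Car3, carbonic anhydrase 3, an abundant enzyme of male rat hepatocytes. Its level was 7.65, 7.72 and 8.17 in ANIT livers, against 12.97, 13.46 and 13.10 in corn oil livers. It was 11.17, 9.68 and 10.31 in MDA livers, against 14.17, 14.03 and 14.60 in ethanol livers. The treated livers were lower throughout, with the MDA livers more scattered, and the shared change was -4.60 ± 0.212 (adjusted p = 1.26e-07). Nim1k, a kinase of the AMPK-related family, was at 6.30, 6.33 and 6.41 in ANIT livers, against 10.97, 9.77 and 9.69 in corn oil livers. It was at 6.57, 6.47 and 6.43 in MDA livers, against 10.53, 10.08 and 9.78 in ethanol livers. All 6 treated livers fell within a narrow range near the low end of the scale, and the shared change was -3.72 ± 0.194 (adjusted p = 2.47e-07). Dhrs7l1, a short-chain dehydrogenase, fell by 4.07 ± 0.342. Egf, epidermal growth factor, was at 8.57, 8.71 and 8.74 in ANIT livers, against 10.62, 10.65 and 10.68 in corn oil livers. It was at 9.25, 8.96 and 9.67 in MDA livers, against 10.92, 10.87 and 11.02 in ethanol livers, with a tight ANIT group, a wider MDA group and no overlap, and it fell by 1.81 ± 0.0989 (adjusted p = 2.99e-07). Apoa4, a lipid-carrying apolipoprotein, fell by 1.77 ± 0.108, Nox4, a hydrogen peroxide producing oxidase, by 1.68 ± 0.155, Adh7, an alcohol and retinol dehydrogenase, by 1.91 ± 0.257, and Slc13a4, a sulfate carrier, by 1.87 ± 0.174. Over the 20 leading lower genes the smaller change ran between 2.72-fold and 14.7-fold, no ANIT or MDA group overlapped its vehicle, and none passed the test of a difference between the compounds. These traits follow in part from the choice of genes by a large change under both compounds. The share of genes without overlap over all genes was not counted.

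Fatty acid oxidation was the gene list with the largest share of lower calls. Of 28 measured genes of fatty acid oxidation and of PPAR alpha, the nuclear receptor that drives them, 17 fell and none rose, against 2.61% lower over all genes. The median shared change was -0.82, and all 28 had the same sign under both compounds. Crot, which passes shortened fatty acids out of the peroxisome as carnitine esters, was at 11.88, 11.64 and 12.16 in ANIT livers, against 13.74, 13.55 and 13.44 in corn oil livers. It was at 11.72, 12.001 and 11.93 in MDA livers, against 13.25, 13.56 and 13.39 in ethanol livers. Both treated groups lay below their vehicles without overlap, a change of -1.60 ± 0.0963 (adjusted p = 6.33e-07). Hacl1, which shortens branched and hydroxy fatty acids in the peroxisome and was not on that list, fell by 2.09 ± 0.106. Angptl4, a secreted lipase inhibitor under PPAR alpha, was at 11.28, 11.49 and 11.36 in ANIT livers, against 12.64, 12.55 and 12.49 in corn oil livers. It was at 10.51, 10.46 and 10.73 in MDA livers, against 12.58, 12.51 and 12.14 in ethanol livers, with no overlap, and it fell by 1.51 ± 0.0838 (adjusted p = 3.35e-07). The mitochondrial gatekeeper Cpt1a, which makes acylcarnitine for import, fell by 1.04 ± 0.121, and the carrier Slc25a20 and the inner enzyme Cpt2 by 0.67 ± 0.0797 and 0.80 ± 0.0992. The chain-shortening enzymes Hadh and Hadha fell by 1.10 ± 0.103 and 0.68 ± 0.0663, and the peroxisomal enzyme Ehhadh by 1.27 ± 0.105. Pdk4, which blocks glucose oxidation, fell by 1.18 ± 0.117. Cyp4a1, the omega-hydroxylase of fatty acids, fell by 0.75 ± 0.105 under ANIT and by 1.47 ± 0.105 under MDA, and was the 1 member of the list that differed between the compounds (0.72 ± 0.148, adjusted p = 0.0405). The number of lower calls on this list stayed between 16 and 18 in the 12 fits that left out 1 sample. In the 305 lower genes with a promoter 12.1% held the letters AGGTCA that PPAR and related receptors bind, beside 13.7% of all promoters and 11.3% of those of tested genes. Among the 12 shared genes of this list with a promoter 1 held them (8.33%).

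The shared calls among genes of bile acid handling were lower, except Abcc3. Of 17 bile acid synthesis genes 4 fell, with a median of -0.39. Cyp8b1, the sterol 12-alpha-hydroxylase that sets the amount of cholic acid, was at 12.91, 12.65 and 12.50 in ANIT livers, against 14.21, 13.47 and 13.61 in corn oil livers. It was at 9.86, 9.27 and 10.34 in MDA livers, against 13.41, 13.01 and 13.52 in ethanol livers. The groups did not overlap, and the change was -1.08 ± 0.254 under ANIT and far deeper under MDA, at -3.49 ± 0.254, a difference of 2.41 ± 0.358 (adjusted p = 0.00835). As a shared call Cyp8b1 was lost without ANIT replicate 3 or corn oil replicate 1, and without that corn oil array 2 of the 4 lower calls on the list were left. Amacr, the racemase of the peroxisomal side-chain pathway, fell by 1.42 ± 0.117. Cyp7a1, the rate-limiting enzyme of bile acid synthesis, was at 12.48, 13.16 and 11.98 in ANIT livers, against 9.62, 8.71 and 10.72 in corn oil livers. It was at 10.78, 11.71 and 11.42 in MDA livers, against 9.10, 11.84 and 10.82 in ethanol livers. The ANIT livers were above theirs by 2.85 ± 0.619 (adjusted p = 0.00978), while the MDA and ethanol livers overlapped (0.72 ± 0.619, adjusted p = 0.534), and Cyp7a1 was not a shared call.

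Of 20 bile acid and lipid transporters 1 rose and 3 fell. Slc10a1, the sodium-dependent bile acid uptake carrier, was at 12.52, 11.67 and 13.09 in ANIT livers, against 13.76, 13.60 and 13.94 in corn oil livers. It was at 12.75, 13.19 and 12.96 in MDA livers, against 13.78, 13.86 and 13.81 in ethanol livers. All treated livers were lower, ANIT replicate 3 the least of its group, and the shared change was -1.09 ± 0.183 (adjusted p = 0.00092). MDA alone reached an adjusted p of 0.0441, so the shared call was lost in 10 of the 12 fits that left out 1 sample, with values between -1.15 and -1.04 there. Slc22a8, an organic anion carrier, fell by 1.45 ± 0.156 and Abcg5, a subunit of the sterol exporter into bile, by 1.71 ± 0.136, more under ANIT than under MDA (-1.46 ± 0.273, adjusted p = 0.0245). The canalicular pump Abcb11 had a shared change of -0.30 ± 0.128 (adjusted p = 0.126), and the basolateral pump Abcc4 changed by 0.48 ± 0.202 under ANIT (adjusted p = 0.174) and by 0.79 ± 0.202 under MDA (adjusted p = 0.0184). The bile acid receptor Nr1h4 (FXR) was lower by 0.52 ± 0.0734 (adjusted p = 0.000285), under the fold threshold. Its target Nr0b2, the repressor SHP, was at 9.29, 9.61 and 11.47 in ANIT livers, against 10.92, 11.56 and 11.63 in corn oil livers. In MDA livers it was at 11.62, 11.09 and 11.02, against 9.77, 10.47 and 10.12 in ethanol livers. Most ANIT livers were below and all MDA livers above their vehicles, with neither change past the threshold (adjusted p = 0.0966 and 0.114).

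Drug-metabolising P450 genes and the liver genes set by the male pattern of growth hormone pulses were lower in most called cases. Of 26 P450 genes of families 1 to 3, 9 fell and 4 rose, with a median of -0.47. Of 24 genes of the growth hormone pattern 10 fell and 1 rose, with a median of -0.72. Cyp2c11, the main male-specific P450 of rat liver, was at 11.42, 11.71 and 11.57 in ANIT livers, against 14.21, 13.87 and 13.97 in corn oil livers. It was at 13.45, 13.11 and 13.39 in MDA livers, against 14.80, 14.30 and 14.69 in ethanol livers. The groups were separate and the ANIT fall was deeper, by -1.17 ± 0.202 (adjusted p = 0.0169), with a shared change of -1.87 ± 0.101. Also lower were Cyp2a2 (-0.85 ± 0.0610), Cyp2d3 (-1.02 ± 0.103), Cyp3a18 (-1.08 ± 0.120) and Hao2, a hydroxy acid oxidase of male liver (-1.24 ± 0.109). Socs2, a feedback inhibitor induced by growth hormone, fell by 1.55 ± 0.244, and Stac3 fell by 1.30 ± 0.224 under ANIT and by 3.15 ± 0.224 under MDA (difference 1.86 ± 0.317, adjusted p = 0.0161). Cyp2c12, the female-specific relative, rose by 1.10 ± 0.200 and Cyp2c22 by 1.26 ± 0.132. The Cyp2c12 call, the only higher one on the growth hormone list, was lost in 4 of the 12 fits that left out 1 sample, and Socs2 in 3. Cyp3a18 was lost in 4 such fits, with quantile normalization and with a spread from all 23 samples. Cyp2e1, which activates many solvents, was the 1 hepatocyte marker of 20 that fell, by 1.22 ± 0.212, and its call was lost in 5 such fits. The median shared change of the 20 hepatocyte markers was -0.16, and 1 lower call among them is near the share of 2.61% over all genes.

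Amino acid, glucose and retinoid metabolism and liver transcription factors held lower shared calls and no higher one. Over all genes 2.61% were shared lower calls, the background for the 4 lists that follow. Of 34 genes of amino acid breakdown and the urea cycle 10 fell, with a median of -0.50. Hal, which degrades histidine, was at 10.52, 11.29 and 10.07 in ANIT livers, against 11.93, 12.15 and 12.09 in corn oil livers. It was at 10.30, 9.93 and 10.83 in MDA livers, against 12.07, 12.10 and 12.37 in ethanol livers, apart from its vehicles throughout, and it fell by 1.63 ± 0.189 (adjusted p = 6.47e-05). Oat, ornithine aminotransferase, fell by 1.37 ± 0.148, Kynu, of tryptophan breakdown, by 1.21 ± 0.0863, and Gpt, alanine aminotransferase, by 1.13 ± 0.131. Of 12 genes of glucose output and glycogen 3 fell, Fbp1 and Pc of gluconeogenesis (-0.62 ± 0.0711 and -0.68 ± 0.0705) and Slc37a4, the glucose 6-phosphate carrier (-0.73 ± 0.0819). Of 19 liver transcription factors 4 fell, Hlf (-0.97 ± 0.103), Foxa1 (-0.66 ± 0.100), Cebpa (-0.61 ± 0.0769) and Creb3l3 (-0.60 ± 0.0666), and 2 of these calls were left without corn oil replicate 3. Of 16 retinoid genes 4 fell, Dhrs7l1, Lrat, Rdh16 and Rdh10, the last of these an enzyme that makes retinaldehyde (-0.89 ± 0.0867). Of these calls 2 were left without ANIT replicate 1 or 3 or corn oil replicate 1 or 3. The median of the 16 retinoid genes was only -0.011, and 8 of them had the same sign under both compounds. ANIT alone called 1 of them higher and 5 lower, and MDA alone 3 higher and 4 lower. Rdh16 was lost in 10 of the 12 fits that left out 1 sample and under 4 processing alternatives. Rdh10 was lost when a gene's probe sets were averaged (-0.34). None of 30 proteasome genes was a shared call by limma (0 also at an unadjusted p under 0.05). Of 25 ribosomal protein genes 1 rose (Rpl3, 0.66 ± 0.0593), near the share of 2.36% over all genes.

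**Figure D3:**
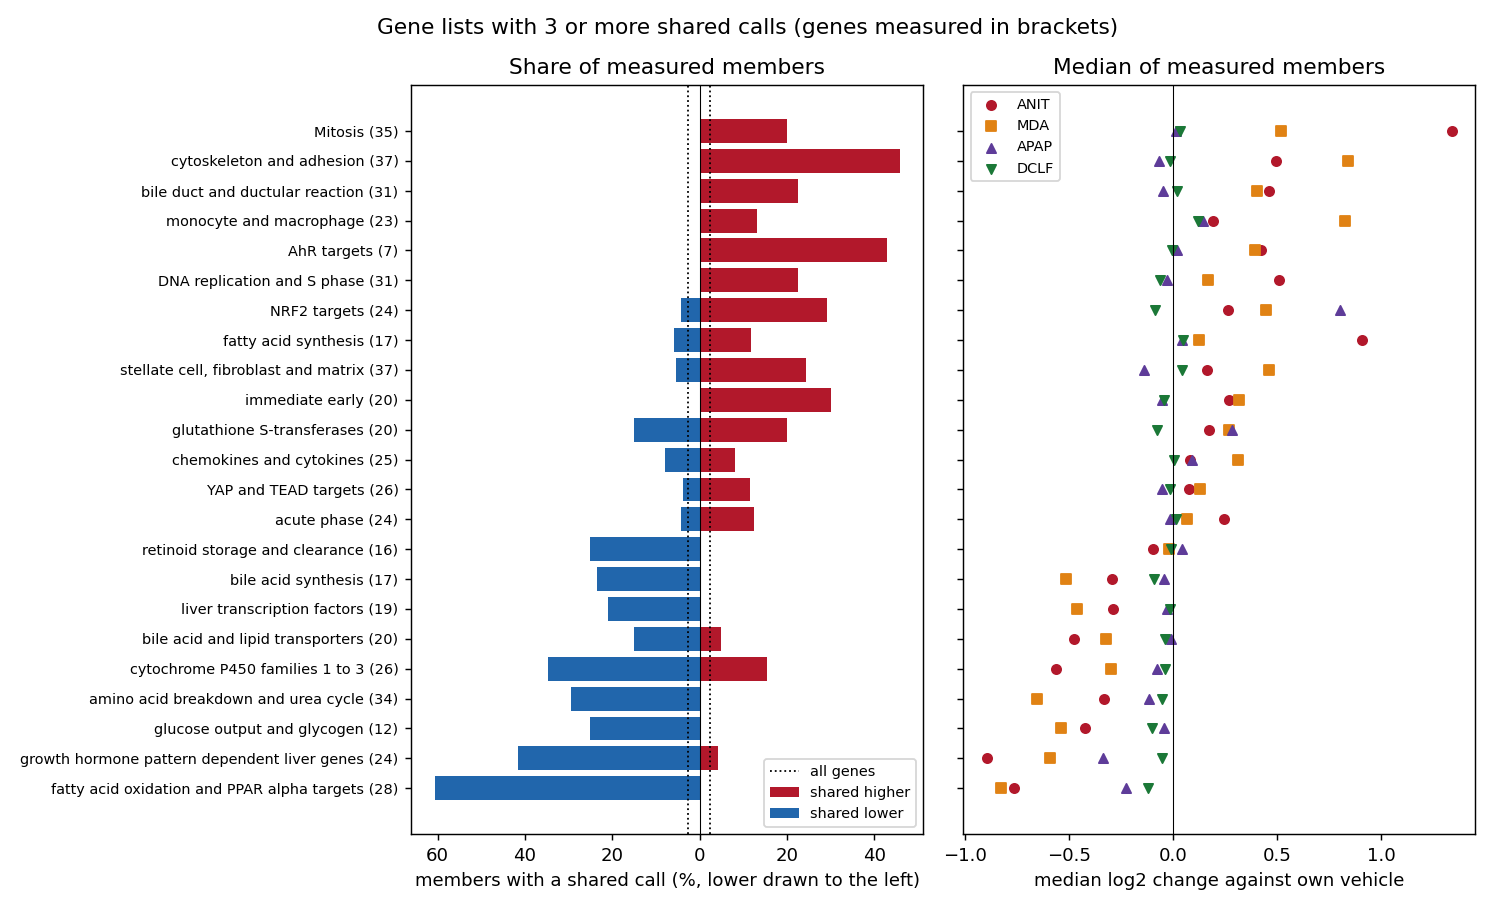
Left, percent of the measured genes of each list that were shared higher calls (red, to the right) or shared lower calls (blue, to the left), with dotted lines at the shares over all genes (2.36% and 2.61%). Right, median log2 change of the same genes under ANIT, MDA, APAP and DCLF, each against its own vehicle. Fatty acid oxidation holds the largest share of lower calls (17 of 28) and cytoskeleton and adhesion the largest share of higher calls (17 of 37) among the lists drawn.

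Over all 14217 genes, whatever their direction, the change differed between ANIT and MDA for 251 (1.77%), with 107 more positive under ANIT (0.753%) and 144 more positive under MDA (1.01%). Over probe sets 1.25% differed (0.596% and 0.651%). Without corn oil replicate 1 the gene counts were 49 and 51. Of the 707 shared genes 28 differed, 16 with the larger change under ANIT and 12 under MDA, and over all 707 the change was larger under ANIT in 357 and under MDA in 350. Lipid synthesis was the most divided function. Of 19 sterol synthesis genes 2 were shared calls, Acat2 and Mvd, whereas ANIT alone called 18 higher and MDA called 1 lower, and 16 passed the test of the difference. Acat2, cytosolic acetyl-CoA acetyltransferase, was at 11.84, 11.78 and 11.85 in ANIT livers, against 8.47, 8.92 and 9.27 in corn oil livers. It was at 10.42, 10.20 and 10.46 in MDA livers, against 9.60, 9.9997 and 9.81 in ethanol livers, higher than its vehicle in both but by 2.38 ± 0.234 more under ANIT (adjusted p = 0.000813). Both sterol calls were lost without MDA replicate 2 or 3 or ethanol replicate 1 or 3. Fasn, fatty acid synthase, rose by 2.76 ± 0.176 under ANIT and by 0.86 ± 0.176 under MDA, a difference of 1.90 ± 0.249 (adjusted p = 0.00447).

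Of the 7 genes called in opposite directions, 5 are described here. Serpina7, thyroxine-binding globulin, was at 9.81, 8.51 and 8.97 in ANIT livers, against 10.90, 10.73 and 10.72 in corn oil livers. In MDA livers it was at 12.09, 12.06 and 11.07, against 9.44, 8.93 and 8.75 in ethanol livers. All ANIT livers were below and all MDA livers above their vehicles, and the changes differed by -4.38 ± 0.453 (adjusted p = 0.00119). Hsd17b7, a sterol synthesis enzyme, rose by 1.59 ± 0.184 under ANIT and fell by 1.09 ± 0.184 under MDA. Scd, which makes monounsaturated fatty acids, rose by 1.20 ± 0.316 under ANIT and fell by 1.29 ± 0.316 under MDA. Tat, tyrosine aminotransferase, rose by 0.70 ± 0.125 under ANIT and fell by 0.86 ± 0.125 under MDA. Mt2A, a metallothionein that binds zinc and copper, fell by 1.34 ± 0.282 under ANIT and rose by 0.998 ± 0.282 under MDA.

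The shared effect was set against the mean effect of APAP and DCLF in a fit of all 23 samples. Because the study found no histological change under APAP or DCLF, compound and presence of injury cannot be told apart in this comparison. The difference passed the test with a fold over 1.5 for 914 genes (6.43%), 559 higher (3.93%) and 355 lower (2.5%). Over probe sets 4.81% passed (2.82% higher and 1.99% lower). Among the shared genes 297 of the 336 higher and 248 of the 371 lower ones were called in their own direction, and none in the other direction. The shared change that chose these genes is also part of this difference, so these counts follow in part from the choice. The shared higher genes had medians of 0.95 under ANIT and 0.94 under MDA, and of 0.0049 under APAP and -0.0043 under DCLF. The shared lower genes had medians of -0.80 under ANIT and -0.82 under MDA, and of -0.15 under APAP and -0.12 under DCLF. The ANIT and MDA medians are large by the rule that chose the genes, and APAP and DCLF took no part in that choice. APAP alone changed 78 genes (0.549%), of which 22 were shared genes called in the same direction and 2 in the opposite one, and DCLF changed 1 gene (0.00703%). Over probe sets APAP changed 0.403% and DCLF 0.0161%. Of the shared genes 443 (62.7%) had the same sign under APAP and 447 (63.2%) under DCLF. The matching shares over all genes were not counted, so these percentages have no background to be read against. The difference was called higher for 11 and lower for 1 of the 31 bile duct markers, and higher for 23 of the 37 cytoskeletal genes. Krt8 changed by -0.10 ± 0.118 under APAP and -0.07 ± 0.132 under DCLF, and the difference of the shared effect was 1.59 ± 0.121 (adjusted p = 1.07e-07). Egf changed by -0.17 ± 0.162 under APAP and by -0.01 ± 0.181 under DCLF, with a difference of -1.72 ± 0.167 (adjusted p = 1.99e-06).

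Over the 24 NRF2 targets the median change was 0.80 under APAP, beside 0.26 under ANIT, 0.45 under MDA and -0.087 under DCLF. Against the mean of APAP and DCLF the shared effect was called higher for 4 of them and lower for 3. For the 20 glutathione S-transferases these counts were 1 and 4, and the shares over all genes were 3.93% and 2.5%. Some of the shared genes also moved under APAP, and those described next were chosen after their values were seen. Gsta3 changed by 4.35 ± 0.344 under APAP (adjusted p = 9.39e-07), and its shared change exceeded the mean of both other compounds by 0.44 ± 0.354, which did not pass the test (adjusted p = 0.531). Abcc3 rose by 2.87 ± 0.244 under APAP and changed by 0.12 ± 0.273 under DCLF, Nqo1 rose by 1.60 ± 0.145 under APAP, and Ephx1 by 1.94 ± 0.218. Gclc went the other way, rising by 0.96 ± 0.113 under APAP (adjusted p = 8.75e-05), and the shared change lay below the mean of the other compounds by -1.04 ± 0.116 (adjusted p = 8.3e-06). Asns and Phgdh, which make asparagine and serine and respond to amino acid shortage, had shared changes of 1.29 ± 0.163 and 1.41 ± 0.243 and rose by 2.60 ± 0.308 and 2.54 ± 0.309 under APAP. The red cell genes Hbb, beta globin, and Alas2, of haem synthesis in red cell precursors, fell by 1.19 ± 0.128 and 1.17 ± 0.174 in the shared effect and by 2.66 ± 0.289 and 1.61 ± 0.289 under APAP. They were the 2 shared calls among 7 red cell genes, and Alas2 was lost without MDA replicate 2 or 3 or ethanol replicate 3. The summed level of these genes lay between 12.91 and 13.20 in ANIT livers, against 14.00 and 14.39 in corn oil livers, and between 13.21 and 13.72 in MDA livers, against 14.02 and 14.55 in ethanol livers.

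**Figure D4:**
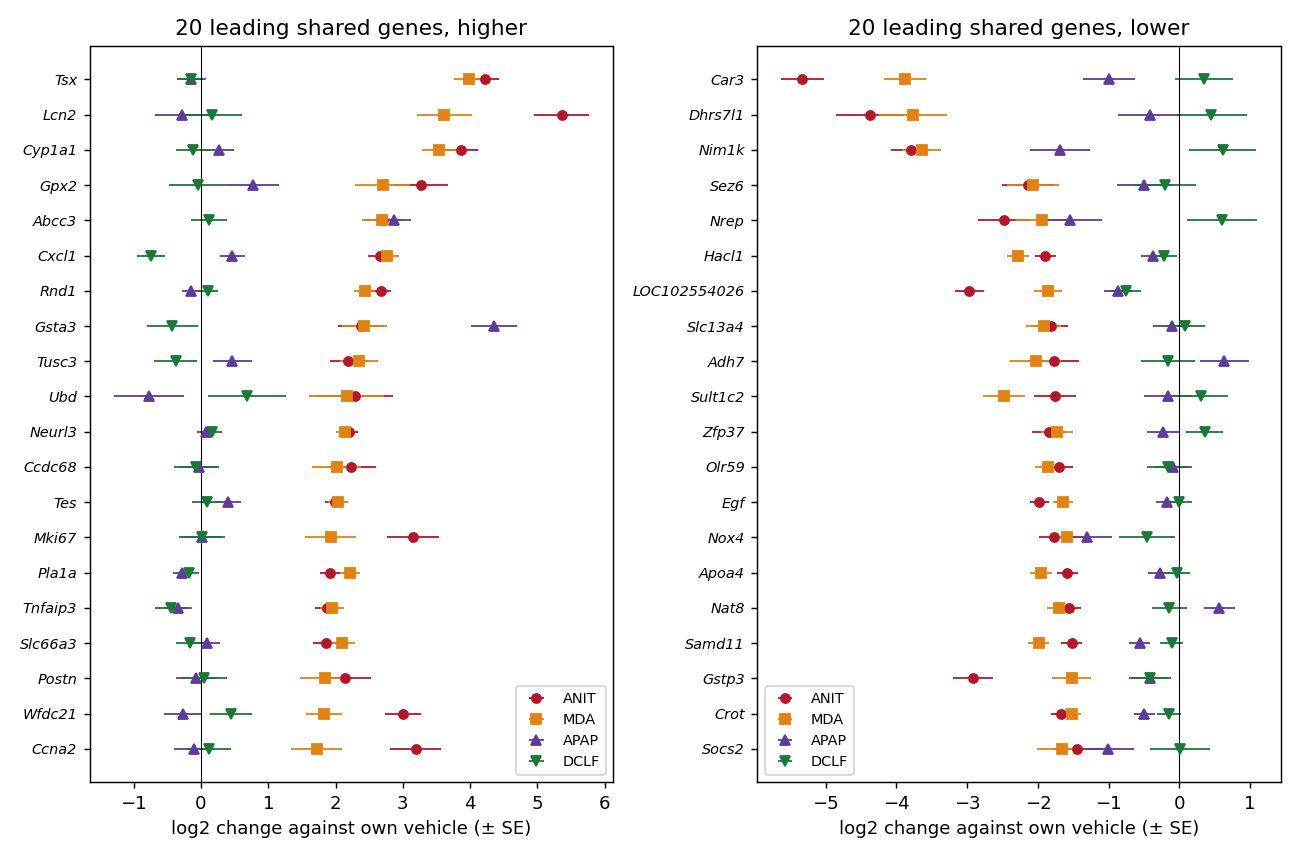
Log2 change against the own vehicle (horizontal, ± SE) of the 20 leading higher and 20 leading lower shared genes under ANIT, MDA, APAP and DCLF; each row is a gene. The ANIT and MDA points lie far from 0 by the rule that chose the genes, most APAP and DCLF points lie near 0, and Abcc3 and Gsta3 are higher under APAP too (2.87 and 4.35).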

How the data were processed

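The deposited values were log2 expression per probe set, made by the authors with RMA (named in the submitters' processing notes, which give no version), which corrects background, quantile normalises the arrays and summarises the probes. RMA can compress large changes in dim and very bright probe sets. Of 31099 deposited probe sets 57 array controls were left out and no value was missing. Genes came from the platform annotation: 20826 probe sets named 1 gene, 436 several and 9780 none. Of the 20826, 20758 were matched to the RefSeq name table. A gene was represented by its brightest single-gene probe set over 23 samples.

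Contrasts were fitted with limma 3.58.1 in R 4.3.3 (lmFit, contrasts.fit, eBayes) on 4 groups of 3 samples, or on all 23 samples for the comparison with APAP and DCLF, with group as the only term. P-values were two-sided and adjusted by Benjamini-Hochberg over 31042 probe sets. The study's methods used a t-test with a fold over 1.5, and limma replaced it because of 3 samples a group. Arrays give no read depth, and the number of arrays limits the precision. Errors are standard errors of the fit.

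Named genes were the 20 higher and 20 lower shared genes with the largest smaller change, shared members of each gene list, a set of bile duct, bile acid and proliferation genes whatever their change, and 5 of the genes with opposite calls. The comparison, the members and the gene lists were chosen with earlier results of these data known. Summed levels are the log2 of summed linear values of a list. Promoter letters were searched on both strands in the 250 bases before each start in the RefSeq table (GRCr8). Fits were tested on simulated data. Alternatives changed the normalization, a filter on dim probe sets (lowest 30 percent), the spread, the rule for a call, the test, the choice of probe set, and left out each sample in turn.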

Additional observations from a re-analysis of the deposited data

Results flagged for a closer look

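Of the 28 shared genes whose change differed in size between the compounds by the test of the difference, 14 are named genes. The ANIT minus MDA difference in log2 change was positive for Acat2 (2.38), Cyp8b1 (2.41), Fasn (1.90), Stac3 (1.86), Mvd (1.63), Gstm3 (1.62), Ube2c (1.26), Epcam (1.06), Mcm4 (1.04) and Cyp4a1 (0.72). It was negative for Abcg5 (-1.46), Gpnmb (-1.21), Cyp2c11 (-1.17) and Tagln (-0.83). For Cyp8b1, Stac3 and Cyp4a1 the positive value means a shallower fall under ANIT. Another 5 genes went in opposite directions, with differences of 2.68 for Hsd17b7, 2.48 for Scd, 1.56 for Tat, -2.34 for Mt2A and -4.38 for Serpina7.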

How the results depend on the processing

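Of the 707 shared genes 442 stayed shared calls in all 12 fits that left out 1 sample and 265 were lost in 1 or more. With 1 sample left out the shared genes numbered 281 to 409 higher and 317 to 388 lower, and the probe sets 398 to 587 and 558 to 713. ANIT alone gave 507 to 681 genes higher and 425 to 568 lower (758 to 1025 and 757 to 989 probe sets), and MDA alone 646 to 716 and 503 to 746 (930 to 1035 and 972 to 1437 probe sets). Differences between the compounds numbered 49 to 117 genes positive and 51 to 155 negative (86 to 192 and 64 to 221 probe sets), the lowest without corn oil replicate 1. Against the other toxicants there were 502 to 646 genes higher and 309 to 387 lower (793 to 1009 and 540 to 679 probe sets).

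Other rules and tests gave other counts. Without a test of each compound alone, 577 genes and 845 probe sets were higher. Without a minimum fold, 684 genes and 1206 probe sets were lower. An average fold over 2 left 158 genes higher and 112 lower (213 and 189 probe sets). The methods' t-test gave 136 higher and 150 lower genes unadjusted (184 and 259 probe sets), and 15 and 13 after Benjamini-Hochberg (19 and 18 probe sets). Quantile normalization kept 622 of the 707 genes, median centring 700, brighter probe sets 662, a trended robust spread 702, array weights 671, a spread from all 23 samples 684 and the mean of a gene's probe sets 610. Quantile normalization also moved the balance, to 393 shared genes higher and 300 lower, against 336 and 371 in the main fit. The named calls it lost were all lower ones, among them Slc10a1 (-0.99), Cebpa (-0.49) and Hadhb (-0.48).

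Directions turned for these shared changes, none of them a call. Nr0b2 was 0.021 quantile normalized and -0.40 to 0.15 with a sample left out, Tat was 0.023 quantile normalized, and Scd was 0.10 quantile normalized, 0.10 with array weights and -0.26 to 0.15 with a sample left out. Spp1 was -0.0053 without MDA replicate 2. Against APAP alone these differences turned: Gsta3 (-1.95), Asns (-1.31), Phgdh (-1.13), Nqo1 (-0.68), Ephx1 (-0.48), Abcc3 (-0.18), Myc (-0.035), Alas2 (0.44) and Elovl5 (0.17). Against DCLF alone Hbb turned (-0.97), and Asns ran between -0.23 (without water replicate 2) and 0.57. The cause was not tested. No paired analysis was possible because the compounds and their vehicles share no numbered animals.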
